A study of Homo sapiens with 12 samples.

Results

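The genes described here are 10 that take up, store, release or sense iron in human cells: TFRC, STEAP3, SLC11A2, SLC40A1, FTL, FTH1, NCOA4, ACO1, IREB2 and FBXL5. They were chosen by symbol, and all 10 were found among the 51141 genes of the deposited count table. Messenger RNA was measured in EA.hy926 cells, an endothelial line that is a hybrid of umbilical vein endothelium and A549 lung carcinoma cells. There were 12 libraries in 4 groups of 3. TEPA+hypoxia cells received 50 µM TEPA (a polyamine chelator of copper) for 16 h and were then held in 1% oxygen for 8 h. TEPA cells had the same dose and time of TEPA and then stayed for 8 h at normal oxygen. Hypoxia cells had the 8 h in 1% oxygen with no TEPA, and control cells had neither. All groups are 1 cell line, and whether replicates came from different cultures is not said in the labels, so the p-values below reflect the spread among these libraries alone.

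As background, cells bring in iron by binding transferrin to the transferrin receptor, reduce it in endosomes and move it into the cytosol. Surplus iron is stored inside ferritin, a shell of heavy and light chains, and leaves the cell through ferroportin. When iron is scarce, the iron regulatory proteins IRP1 and IRP2 bind hairpins called iron-responsive elements. Binding in a 5′ UTR blocks translation, as in the ferritin mRNAs, and binding in the 3′ UTR of the transferrin receptor mRNA protects it from decay. A block of translation by itself need not alter the mRNA level, and protein was not measured here.

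The hairpins are shown because their place in the mRNA differs between members: in TFRC they lie in the 3′ UTR, and in FTL, FTH1 and SLC40A1 in the 5′ UTR. Each sequence is read 5′ to 3′ from the GENCODE 29 transcripts on GRCh38, and the capitals mark the loop. The search asked for a bulged C, then 5 bases, the loop CAGTGN and 5 bases that pair with the first 5, with G-T pairs allowed. The TFRC 3′ UTR holds 4 matches on the minus strand at chr3:196050979-196051007, chr3:196050575-196050603, chr3:196050510-196050538 and chr3:196050463-196050491.
TFRC site 1: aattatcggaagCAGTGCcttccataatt
TFRC site 2: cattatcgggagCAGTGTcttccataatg
TFRC site 3: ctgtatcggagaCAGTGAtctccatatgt
TFRC site 4: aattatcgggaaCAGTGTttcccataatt
The 5′ UTR matches lie at chr19:48965335-48965363 on the plus strand in FTL, and on the minus strand at chr11:61967574-61967602 in FTH1 and chr2:189580661-189580689 in SLC40A1.
FTL: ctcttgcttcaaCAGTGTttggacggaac
FTH1: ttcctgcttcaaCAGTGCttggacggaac
SLC40A1: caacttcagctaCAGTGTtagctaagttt
The FTH1 hairpin is in 7 of its 8 coding transcripts with a 5′ UTR, and that of SLC40A1 in 1 of 5, so counts per gene do not show how much SLC40A1 mRNA carried it. The pattern matched the 5′ UTR of 36 of 19050 coding genes (0.189%), 3 of the 10 members among them, and the 3′ UTR of 132 of 19576 (0.674%), with 1 member. A match is a description of the letters, and no match says nothing about binding: SLC11A2, one isoform of which is known to carry a 3′ element, had no match to this pattern in its 11 transcripts with a 3′ UTR.

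Library totals ran from 13406858 to 24778944 counts. Levels below are CPM, counts scaled by the filtered library total times its TMM factor. Hypoxia 2 and 3 stand apart from the other 10 libraries: their TMM factors were 0.772 and 0.838, against 1.03 to 1.08 elsewhere, and the share of counts in ribosomal protein genes was 9.89% and 8.54% in them and 3.16% to 5.04% in the others. Results that rest on them are therefore given with and without them, and without them hypoxia 1 is the only hypoxia library, assumed by the fit to vary like the other groups. Of 15 endothelial markers 13 had enough counts to be tested, PECAM1 and CDH5 among them, and EMCN and CLDN5 were at 0 in every library. The summed endothelial markers were 4094 to 4199 CPM in TEPA+hypoxia, 4325 to 4467 in TEPA, 4447 to 7309 in hypoxia and 3857 to 4519 in control. The markers in this sum moved in both directions in hypoxia 2 and 3. ENG (3390 and 2775 CPM, against 827 to 1116 in control) and EGFL7 (1715 and 1440, against 370 to 568) were higher. PECAM1 (431 and 434, against 593 to 609) and CDH5 (274 and 377, against 657 to 728) were lower. TEK was at 2.28 and 3.65 CPM, against 45.3 to 61.7 in control. The summed epithelial markers were 5725 to 6597 CPM in TEPA+hypoxia, 6903 to 7417 in TEPA, 7690 to 18184 in hypoxia and 5440 to 7159 in control. KRT7, KRT8 and KRT18 held nearly all of that sum, EPCAM did not exceed 0.99 CPM, and CDH1 and KRT5 were at 0. Of 7 erythroid markers, which would mark a cell type with heavy iron use, 4 were at 0 and the sum did not exceed 0.147 CPM in any library.

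All 10 members passed the filter on low counts, and their levels spanned a wide range. Per kilobase of the longest principal transcript, the control means were 4485 ± 399 CPM per kb for FTL and 1227 ± 54.1 for FTH1 (SD, n = 3). They were 97.3 ± 7.2 CPM per kb for NCOA4, 43.6 ± 4.02 for TFRC, 21.3 ± 0.47 for ACO1 and 11.2 ± 0.405 for SLC11A2. IREB2 followed at 9.87 ± 1.1 CPM per kb, FBXL5 at 7.53 ± 0.667, STEAP3 at 7.25 ± 0.178 and SLC40A1 at 0.652 ± 0.0104. In that order the neighbours SLC11A2 and IREB2, and FBXL5 and STEAP3, overlapped within 1 SD. The 2 ferritin chains thus had the highest mRNA levels of the 10 in control cells, and the exporter the lowest.

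**Figure D1:**
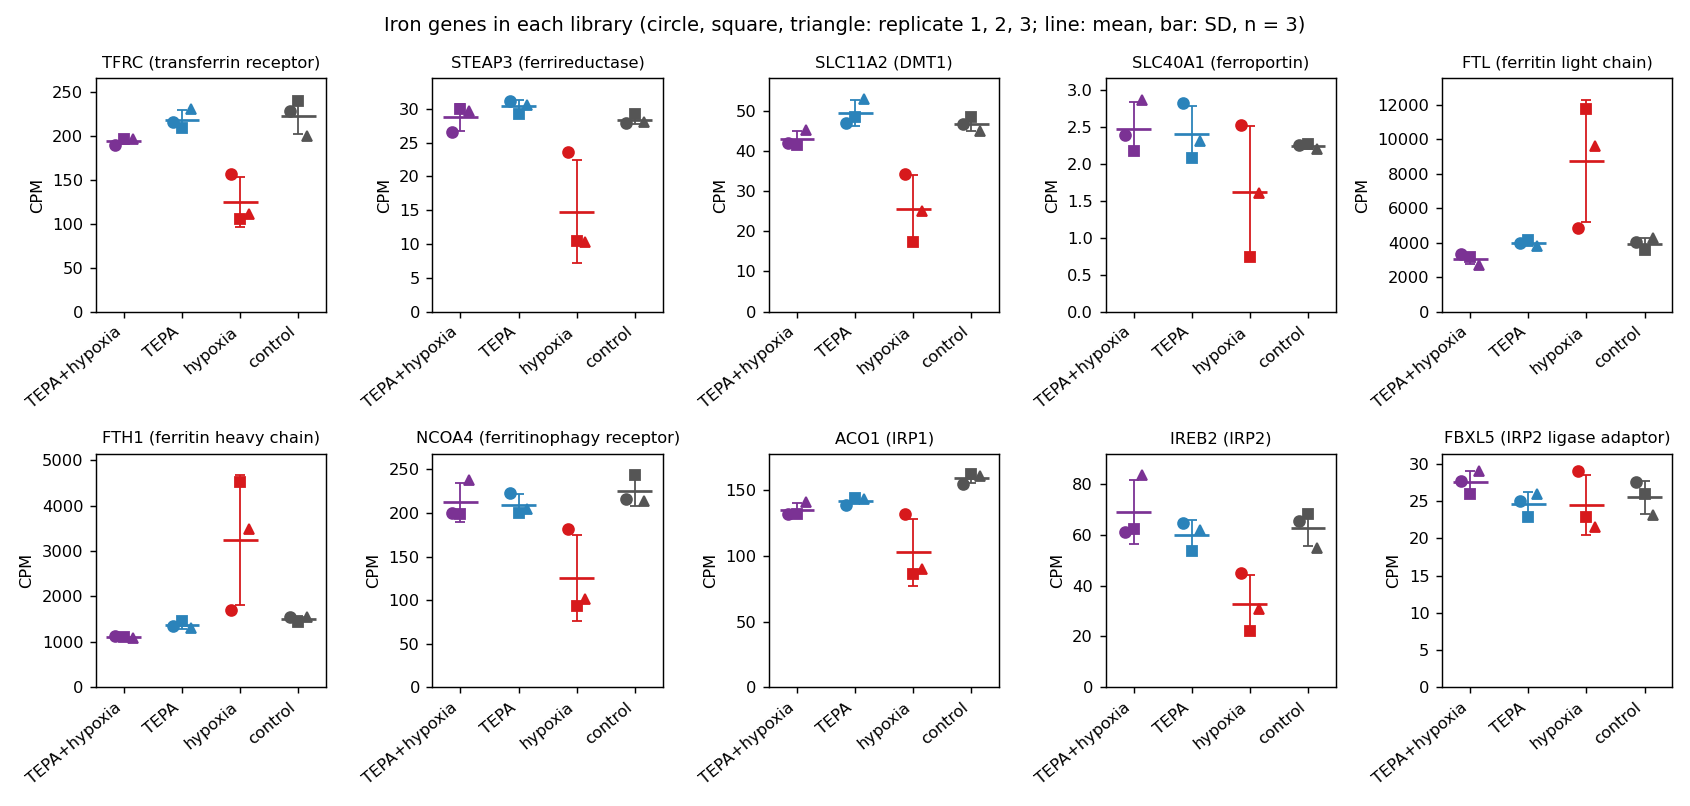
CPM (y axes, each from 0) of the 10 iron genes in every library of the 4 groups (x axes). Points are libraries, with replicate 1, 2 and 3 as circle, square and triangle, lines are means and bars are SD (n = 3). In most panels hypoxia 2 and 3 lie far from all other libraries, above them for FTL and FTH1 and below them for TFRC, STEAP3, SLC11A2, NCOA4, ACO1 and IREB2, while FBXL5 differs little.

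Ferritin mRNA was lower in TEPA+hypoxia than in hypoxia for both chains, and among the members only these 2 changes were called in all 23 fits run. FTL, the light chain that helps mineralise iron, had 3344, 3153 and 2696 CPM in TEPA+hypoxia, 3959, 4129 and 3778 CPM in TEPA, 4849, 11766 and 9589 CPM in hypoxia and 4009, 3557 and 4248 CPM in control. Every TEPA+hypoxia library lay below every library of the other 3 groups, and every hypoxia library lay above them. FTH1, the heavy chain with the ferroxidase activity, had 1122, 1099 and 1084 CPM in TEPA+hypoxia, 1352, 1452 and 1295 CPM in TEPA, 1702, 4523 and 3487 CPM in hypoxia and 1539, 1432 and 1554 CPM in control. The same separation held for FTH1, with hypoxia 1 close to the control libraries and hypoxia 2 and 3 far above them.

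The log2 fold change of TEPA+hypoxia against hypoxia was -1.51 ± 0.25 for FTL and -1.55 ± 0.26 for FTH1 (± SE here and below, adjusted p = 0.00217 for both by the edgeR quasi-likelihood F-test with Benjamini-Hochberg adjustment over 14447 genes). With hypoxia 1 as the only hypoxia library the changes were -0.65 ± 0.12 for FTL (adjusted p = 0.0178) and -0.62 ± 0.08 for FTH1 (adjusted p = 0.0133), under the same edgeR test. Both chains fell in all 23 fits of this contrast, between -1.78 and -0.28 for FTL and between -1.84 and -0.33 for FTH1. Of 12243 genes present in every fit, 397 (3.24%) were also lower in all of them.

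Against TEPA alone, TEPA+hypoxia gave -0.37 ± 0.24 for FTL (adjusted p = 0.795) and -0.31 ± 0.25 for FTH1 (adjusted p = 0.816) with edgeR on all 12 libraries, neither of them called. Without hypoxia 2 and 3, whose spread enters the shared estimate of error, FTH1 fell (-0.30 ± 0.06, edgeR adjusted p = 0.0276; 2.17% of 15195 genes were called) and FTL missed the threshold at -0.35 ± 0.09 (edgeR adjusted p = 0.0520). A fit of these 2 groups alone, which called 2.54% of all genes, called both, FTL at -0.36 ± 0.08 (edgeR adjusted p = 0.0430) and FTH1 at -0.30 ± 0.06 (edgeR adjusted p = 0.0314). From all 12 libraries the TEPA+hypoxia level was 0.775 times that of TEPA for FTL and 0.806 times for FTH1.

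Both chains rose in hypoxia against control, FTL by log2 1.15 ± 0.24 (edgeR adjusted p = 0.00601) and FTH1 by 1.10 ± 0.25 (edgeR adjusted p = 0.00653). Hypoxia 2 and 3 carried both calls: with hypoxia 1 alone FTL was at 0.30 ± 0.12 (edgeR adjusted p = 0.168) and FTH1 at 0.17 ± 0.09 (edgeR adjusted p = 0.249). TEPA against control left FTL at 0.01 ± 0.24 and FTH1 at -0.14 ± 0.25, with adjusted p = 1 by edgeR for both.

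The ferritin chains together took 0.480%, 0.458% and 0.400% of all counts in TEPA+hypoxia, 0.547%, 0.574% and 0.528% in TEPA, 0.673%, 1.26% and 1.09% in hypoxia and 0.572%, 0.517% and 0.600% in control. The share of ribosomal protein genes was also highest in hypoxia 2 and 3 and lowest in TEPA+hypoxia 3, and its part in the ferritin result was not tested. FTL counts per FTH1 count averaged 2.78 ± 0.257 in TEPA+hypoxia, 2.90 ± 0.0493 in TEPA, 2.73 ± 0.126 in hypoxia and 2.60 ± 0.125 in control (SD, n = 3). The ratio overlapped between groups except TEPA with control, where the lowest TEPA value was 2.84 and the highest control value 2.73. The difference in this ratio was not tested, and it spanned far less than the level of either chain.

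**Figure D2:**
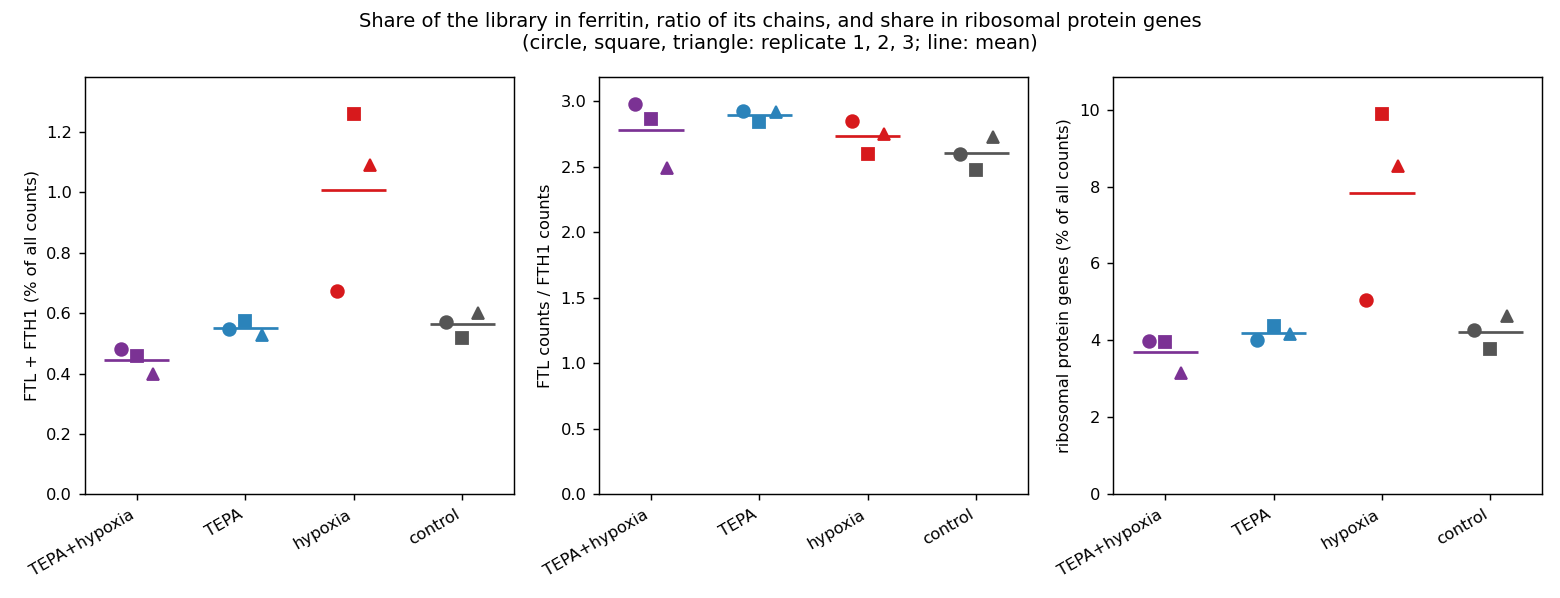
Left, FTL and FTH1 as a percentage of all counts, centre, FTL counts per FTH1 count, and right, ribosomal protein genes as a percentage of all counts, by library and group (points by replicate, lines are means). Hypoxia 2 and 3 hold 1.26% and 1.09% ferritin and 9.89% and 8.54% ribosomal protein counts, while the ratio of the chains stays between 2.48 and 2.98 in all 12 libraries.

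Both ferritin genes have many processed pseudogenes with near-identical sequence, and the counting of reads shared with them is not given in the sources used here, so the ferritin counts carry that uncertainty. The table held 24 FTH1 pseudogene genes, 14 of them above 0 and FTH1P7 the highest with 1763 counts over the 12 libraries. Together they equalled 0.957% to 1.30% of FTH1 counts per library. Of 19 FTL pseudogene genes 3 were above 0, FTLP3 the highest with 463 counts, and they equalled 0.0406% to 0.0573% of FTL counts.

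The uptake genes were lower in hypoxia than in control and higher in TEPA+hypoxia than in hypoxia, with hypoxia 1 in between. TFRC, the transferrin receptor, had 190, 197 and 197 CPM in TEPA+hypoxia, 216, 209 and 231 CPM in TEPA, 157, 105 and 111 CPM in hypoxia and 228, 240 and 200 CPM in control. All 3 hypoxia libraries lay below all others, and TEPA+hypoxia lay just below TEPA and control. TFRC fell in hypoxia against control (log2 -0.84 ± 0.14, edgeR adjusted p = 0.00601) and rose in TEPA+hypoxia against hypoxia (0.65 ± 0.14, edgeR adjusted p = 0.00323).

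Neither TFRC change was called without hypoxia 2 and 3: hypoxia against control was then -0.51 ± 0.11 (edgeR adjusted p = 0.0601) and TEPA+hypoxia against hypoxia 0.32 ± 0.11 (edgeR adjusted p = 0.0604). TEPA+hypoxia against TEPA gave -0.17 ± 0.14 (edgeR adjusted p = 0.816) and TEPA against control -0.03 ± 0.14 (edgeR adjusted p = 1). As background, TFRC is also a reported target of the hypoxia-inducible factors, which bind the core ACGTG, or the same core with G as its first base. The RefSeq promoter of TFRC (GRCh38.p14, 250 bases before to 50 after the start) holds ACGTG once, 88 bases before the start, shown in capitals within chr3:196082147-196082206 on the minus strand.
TFRC promoter: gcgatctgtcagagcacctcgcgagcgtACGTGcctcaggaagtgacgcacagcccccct
Of the 9 members with a promoter in that table FTL also had 1 match to ACGTG and FBXL5 had 2, the letters of 1 palindrome (CACGTG, also the E-box) read on both strands. On either strand, 7518 of 35116 promoters (21.4%) hold ACGTG. The core with G first was found 4 times in SLC11A2, 2 times in FTL, once each in IREB2 and ACO1 and not in TFRC, and in 12832 promoters (36.5%). These matches describe letters and were tied to no change here.

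STEAP3, the endosomal ferrireductase, had 26.5, 30 and 29.7 CPM in TEPA+hypoxia, 31.2, 29.3 and 30.6 CPM in TEPA, 23.6, 10.4 and 10.3 CPM in hypoxia and 27.9, 29.2 and 28.1 CPM in control. Hypoxia 2 and 3 held the lowest levels by far, and hypoxia 1 was also below every library of the other groups. It fell in hypoxia against control (-0.93 ± 0.26, edgeR adjusted p = 0.0115) and rose in TEPA+hypoxia against hypoxia (0.95 ± 0.26, edgeR adjusted p = 0.00854). With those libraries left out the values were -0.26 ± 0.12 (edgeR adjusted p = 0.210) and 0.29 ± 0.12 (edgeR adjusted p = 0.108), neither of them called.

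SLC11A2, the divalent metal transporter DMT1 that carries iron out of the endosome, had 41.9, 41.5 and 45.1 CPM in TEPA+hypoxia, 46.8, 48.5 and 52.9 CPM in TEPA, 34.2, 17.3 and 24.9 CPM in hypoxia and 46.7, 48.3 and 45.0 CPM in control. Its hypoxia libraries were the lowest of the 12, and every TEPA+hypoxia library lay below every TEPA library. Hypoxia against control gave -0.87 ± 0.19 (edgeR adjusted p = 0.00612) and TEPA+hypoxia against hypoxia 0.75 ± 0.19 (edgeR adjusted p = 0.00622). Neither was called without hypoxia 2 and 3 (-0.45 ± 0.12, edgeR adjusted p = 0.0828, and 0.33 ± 0.12, edgeR adjusted p = 0.0654).

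SLC40A1, ferroportin, had 2.39, 2.17 and 2.87 CPM in TEPA+hypoxia, 2.82, 2.08 and 2.31 CPM in TEPA, 2.52, 0.735 and 1.60 CPM in hypoxia and 2.26, 2.27 and 2.20 CPM in control. These levels rest on 10 to 72 counts a library, where 3 counts correspond to 0.118 to 0.267 CPM (a floor that covers counting error only), and the groups overlapped apart from hypoxia 2 and 3. No contrast was called with all 12 libraries: TEPA+hypoxia against hypoxia gave 0.59 ± 0.33 (edgeR adjusted p = 0.139) and hypoxia against control -0.45 ± 0.33 (edgeR adjusted p = 0.259), and with hypoxia 1 alone hypoxia against control was at 0.17 ± 0.28. It was called without hypoxia 1: hypoxia against control was then -1 ± 0.32 (edgeR adjusted p = 0.0114, 71.8% of all genes called) and TEPA+hypoxia against hypoxia 1.14 ± 0.32 (edgeR adjusted p = 0.00472, 73.5% of all genes called).

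NCOA4, the receptor that delivers ferritin to autophagy so that its iron is freed, had 200, 199 and 238 CPM in TEPA+hypoxia, 223, 200 and 204 CPM in TEPA, 182, 93.0 and 101 CPM in hypoxia and 216, 244 and 214 CPM in control. The hypoxia libraries were the 3 lowest, with hypoxia 1 nearest the rest. NCOA4 fell in hypoxia against control (-0.84 ± 0.21, edgeR adjusted p = 0.00799) and rose in TEPA+hypoxia against hypoxia (0.76 ± 0.21, edgeR adjusted p = 0.00926). Neither change was called with hypoxia 1 alone (-0.31 ± 0.11, edgeR adjusted p = 0.151, and 0.23 ± 0.11, edgeR adjusted p = 0.172).

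Of the sensing genes, IREB2 (IRP2) gave the one call outside ferritin that was kept without hypoxia 2 and 3. IREB2 had 61.0, 62.3 and 83.4 CPM in TEPA+hypoxia, 64.6, 53.7 and 61.8 CPM in TEPA, 45.0, 22.2 and 30.7 CPM in hypoxia and 65.5, 68.0 and 54.8 CPM in control. The hypoxia libraries were again the 3 lowest, and TEPA+hypoxia 3 was the highest. IREB2 rose in TEPA+hypoxia against hypoxia by 1.08 ± 0.22 (edgeR adjusted p = 0.00264), and by 0.62 ± 0.18 without hypoxia 2 and 3 (edgeR adjusted p = 0.0340). Hypoxia against control gave -0.94 ± 0.22 (edgeR adjusted p = 0.00689) and, without those libraries, -0.48 ± 0.17 (edgeR adjusted p = 0.146).

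ACO1 (IRP1), which is a cytosolic aconitase when it holds an iron-sulfur cluster, had 132, 132 and 141 CPM in TEPA+hypoxia, 139, 144 and 143 CPM in TEPA, 132, 86.3 and 90.1 CPM in hypoxia and 155, 162 and 161 CPM in control. Every control library lay above every library of the other 3 groups. Hypoxia against control gave -0.63 ± 0.14 (edgeR adjusted p = 0.00618) and TEPA+hypoxia against hypoxia 0.39 ± 0.14 (edgeR adjusted p = 0.0304). Hypoxia 1 matched the TEPA+hypoxia libraries, and without hypoxia 2 and 3 that second difference was 0.04 ± 0.09 (edgeR adjusted p = 0.806), while hypoxia against control was -0.27 ± 0.09 (edgeR adjusted p = 0.122). TEPA against control was -0.17 ± 0.14 (edgeR adjusted p = 1).

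FBXL5, the iron-sensing adaptor of the ubiquitin ligase that degrades IRP2, had 27.7, 25.9 and 29 CPM in TEPA+hypoxia, 25, 22.9 and 26 CPM in TEPA, 29.1, 22.8 and 21.5 CPM in hypoxia and 27.5, 25.9 and 23.1 CPM in control. All 4 groups overlapped, and this was the member with the smallest spread between groups. Hypoxia against control was -0.06 ± 0.13 (edgeR adjusted p = 0.720) and TEPA+hypoxia against hypoxia 0.17 ± 0.13 (edgeR adjusted p = 0.281).

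Counted over the members, TEPA+hypoxia against hypoxia called 6 higher (TFRC, STEAP3, SLC11A2, NCOA4, ACO1, IREB2) and 2 lower (FTL, FTH1), where 61.5% of the 14447 genes tested were called, 30.9% higher and 30.6% lower. Hypoxia against control called 2 higher (FTL, FTH1) and 6 lower, the same 8 genes, with 57.2% of all genes called, 29.4% higher and 27.8% lower. With shares of that size over all genes, 8 of 10 says little about iron genes as a group. The 2 comparisons share the hypoxia libraries. With hypoxia 1 as the only hypoxia library, TEPA+hypoxia against hypoxia called 3 of 10 (15.2% of 15195 genes) and hypoxia against control 0 of 10 (0.513% of all genes), with 7 members, and 22.7% of all genes, at an unadjusted p under 0.05. A fit of hypoxia and control alone also called 0 members, and 0% of all genes. One of TEPA+hypoxia and hypoxia alone called 4 members and 37.3% of all genes.

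TEPA+hypoxia against TEPA called 0 members with edgeR, where 0.0969% of all genes were called. An unadjusted edgeR p under 0.05 was found for 0 members and 7.68% of all genes. DESeq2 also called 0 members, and of 14416 genes it called 90 higher and 50 lower. TFRC, FTL, FTH1 and SLC11A2 were lower in every TEPA+hypoxia library than in every TEPA library, and 18% of all genes were so separated. TEPA against control called 0 members and 0% of all genes with edgeR, and 0 members and 2% of all genes had an unadjusted p under 0.05. DESeq2 called 0 members there too, and of 14416 genes it called 1 higher and 5 lower. STEAP3 was wholly higher and ACO1 wholly lower there, and 13.6% of all genes were separated in either direction.

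**Figure D3:**
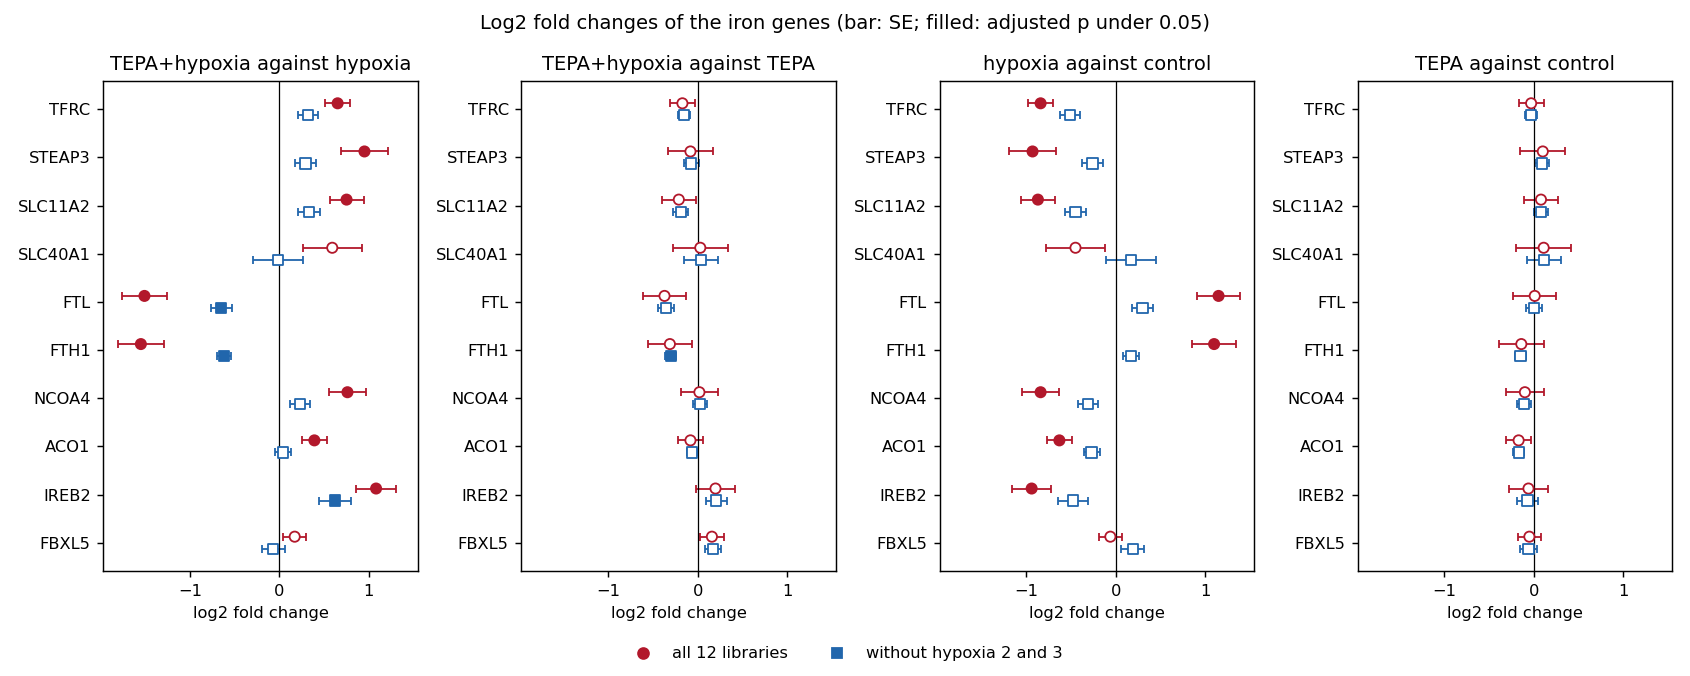
Log2 fold changes (x axes, bars are SE) of the 10 genes in the 4 contrasts, from all 12 libraries (circles) and without hypoxia 2 and 3 (squares), with filled symbols at an adjusted p under 0.05. Without those libraries FTL, FTH1 and TFRC lie nearer 0 in TEPA+hypoxia against hypoxia and in hypoxia against control, and the filled symbols are FTL, FTH1 and IREB2 in TEPA+hypoxia against hypoxia and FTH1 in TEPA+hypoxia against TEPA.

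The response to hypoxia was then set against itself with and without TEPA, as an interaction. It was called for 6 members, where 38.8% of all genes were called: FTL at -1.52 ± 0.34 (edgeR adjusted p = 0.0236), FTH1 at -1.41 ± 0.36 (edgeR adjusted p = 0.0236), IREB2 at 1.14 ± 0.31 (edgeR adjusted p = 0.0237), TFRC at 0.67 ± 0.20 (edgeR adjusted p = 0.0268), NCOA4 at 0.87 ± 0.29 (edgeR adjusted p = 0.0393) and ACO1 at 0.56 ± 0.20 (edgeR adjusted p = 0.0443). Without TEPA, ferritin levels were higher in hypoxia than in control, and with TEPA they were lower in TEPA+hypoxia than in TEPA, where the difference itself was not called. Without hypoxia 2 and 3 no member and 0% of all genes were called, FTL then being at -0.65 ± 0.15 (edgeR adjusted p = 0.0654) and FTH1 at -0.47 ± 0.11 (edgeR adjusted p = 0.0654), with 5 members, and 27.1% of all genes, at an unadjusted p under 0.05. Leaving out TEPA+hypoxia 3, TEPA 2, hypoxia 3, control 1 or control 2 singly left 0% of all genes called, the 6 members included, with FTL still at -1.53 to -1.43 and FTH1 at -1.42 to -1.34. Of the members, 3 were called without TEPA+hypoxia 2, TEPA 1 or hypoxia 2, where 25.1%, 21.8% and 15.4% of all genes were, and all 10 without hypoxia 1, where 66% of all genes were.

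The members differ in base composition, from 40.8% G and C over the annotated transcripts of IREB2, 41.4% in FBXL5 and 41.8% in TFRC to 53.9% in FTH1, 56.3% in FTL and 57.4% in STEAP3. For the next fit, length was that of all annotated exons of a gene merged. A fit with offsets for GC content and this length in each library moved most of the members. In hypoxia against control it left 4 members called, where 48.8% of the 12556 genes with both values were called: FTH1 at 0.40 ± 0.15 (edgeR adjusted p = 0.0393), NCOA4 at -0.62 ± 0.15 (edgeR adjusted p = 0.00796), STEAP3 at -1.21 ± 0.32 (edgeR adjusted p = 0.0110) and FBXL5, which turned to 0.38 ± 0.09 (edgeR adjusted p = 0.00743). FTL was then at 0.16 ± 0.09 (edgeR adjusted p = 0.152) and TFRC at -0.15 ± 0.07 (edgeR adjusted p = 0.102).

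In TEPA+hypoxia against hypoxia the same offsets called 5 members, where 54.3% of all genes were called, and kept FTL lower (-0.41 ± 0.09, edgeR adjusted p = 0.00347) and FTH1 lower (-0.77 ± 0.15, edgeR adjusted p = 0.00248), and STEAP3 and NCOA4 higher (1.30 ± 0.32 and 0.58 ± 0.15). TFRC turned to -0.11 ± 0.07 (edgeR adjusted p = 0.232), ACO1 to -0.13 ± 0.07 (edgeR adjusted p = 0.125) and FBXL5 to -0.27 ± 0.09 (edgeR adjusted p = 0.0226), and neither IREB2 (0.17 ± 0.10, edgeR adjusted p = 0.148) nor SLC11A2 (0.04 ± 0.11, edgeR adjusted p = 0.8) was called any longer. With the offsets and without hypoxia 2 and 3, a fit chosen after seeing the data that called 12.8% of all genes, the called members were FTL at -0.28 ± 0.06 (edgeR adjusted p = 0.0166), FTH1 at -0.33 ± 0.07 (edgeR adjusted p = 0.0125) and STEAP3 at 0.47 ± 0.13 (edgeR adjusted p = 0.0308). In that fit TEPA+hypoxia against TEPA called 3 members lower, where 3.75% of all genes were called: FTL, FTH1 and TFRC, the last at -0.25 ± 0.06 (edgeR adjusted p = 0.0319).

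**Figure D4:**
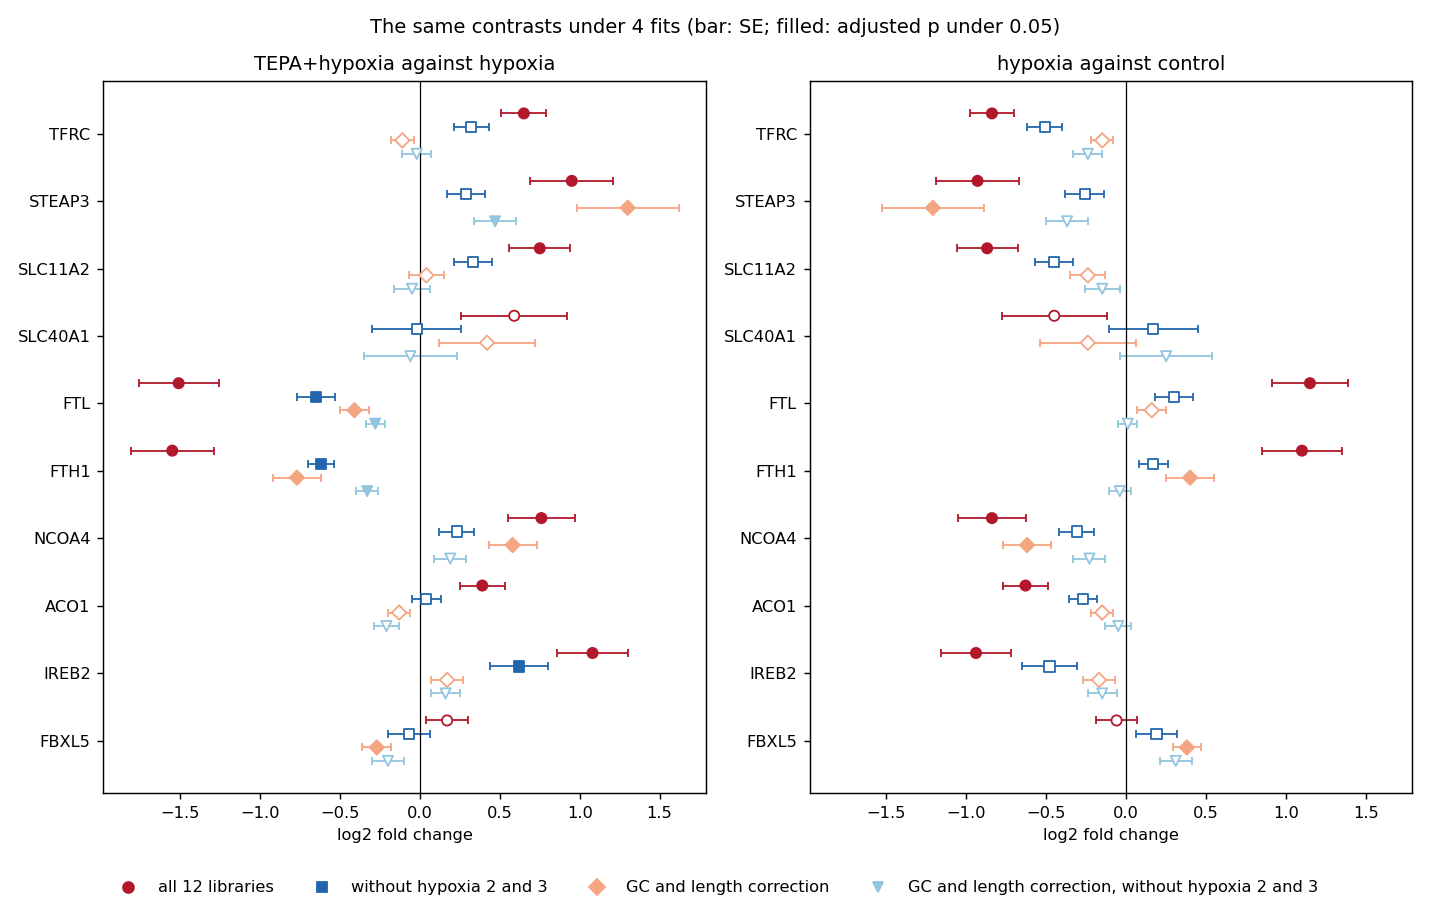
Log2 fold changes (x axes, bars are SE) of the 10 genes in TEPA+hypoxia against hypoxia (left) and hypoxia against control (right) under 4 fits, with filled symbols at an adjusted p under 0.05. In the left panel FTL and FTH1 are filled and below 0 under all 4, while TFRC is at 0.65 with all 12 libraries and at -0.11 with the GC and length correction.

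Other iron genes were taken from 4 lists. Their counts and medians, and the log2 changes of single genes, are given below without the offsets for GC content and length. How far the offsets would move the counts and medians was not tested. Among mRNAs with an iron-responsive element other than the members, 0 rose and 6 fell of 7 tested in hypoxia against control, with a median log2 of -1.05 where that of all genes was -0.01 and 27.8% of all genes were lower. The strongest by p was EPAS1, the gene of HIF-2α, whose mRNA carries such an element in its 5′ UTR. EPAS1 had 214, 222 and 285 CPM in TEPA+hypoxia, 371, 318 and 330 CPM in TEPA, 177, 105 and 121 CPM in hypoxia and 270, 292 and 310 CPM in control, so that hypoxia was the lowest group and TEPA the highest. Hypoxia against control gave -1.11 ± 0.18 (edgeR adjusted p = 0.00601), and without hypoxia 2 and 3 it was at -0.71 ± 0.14 (edgeR adjusted p = 0.0483).

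In TEPA+hypoxia against hypoxia 5 of these 7 genes rose and 0 fell (median 0.83, all genes 0.03, with 30.9% of all genes higher), and without hypoxia 2 and 3 EPAS1 and APP did, with 7.98% of all genes higher. APP, the amyloid precursor protein, was then at 0.27 ± 0.08 (edgeR adjusted p = 0.0386) and EPAS1 at 0.45 ± 0.14 (edgeR adjusted p = 0.0476). TEPA+hypoxia against TEPA gave EPAS1 -0.50 ± 0.18 (edgeR adjusted p = 0.5), and by -0.49 ± 0.10 without hypoxia 2 and 3 (edgeR adjusted p = 0.0225).

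The genes that assemble iron-sulfur clusters, the cofactor that IRP1 holds, were lower in TEPA+hypoxia than in hypoxia in 15 of 23 tested and higher in 1 (median -0.61, all genes 0.03, with 30.6% of all genes lower). With hypoxia 1 alone, 8 fell and 0 rose (median -0.30, with 7.17% of all genes lower). FDXR, the reductase that feeds electrons to the assembly, had 96.4, 92.8 and 76.1 CPM in TEPA+hypoxia, 108, 110 and 103 CPM in TEPA, 140, 375 and 303 CPM in hypoxia and 112, 101 and 124 CPM in control. As for FTL, hypoxia 2 and 3 were the highest and TEPA+hypoxia the lowest. Its change in TEPA+hypoxia against hypoxia was -1.62 ± 0.27 (edgeR adjusted p = 0.00217), and -0.65 ± 0.14 without those libraries (edgeR adjusted p = 0.0185). In hypoxia against control 11 of the 23 rose and 0 fell, where 29.4% of all genes rose, and none passed without hypoxia 2 and 3.

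Of 21 heme genes tested, 3 rose and 13 fell in TEPA+hypoxia against hypoxia (median -0.58, with 30.9% of all genes higher and 30.6% lower), and without hypoxia 2 and 3, 0 rose and 4 fell, where 7.17% of all genes fell: HMOX2, BLVRB, TMEM14C and UROD. HMOX1, the inducible heme oxygenase that frees iron from heme, had 17.7, 19.3 and 14.6 CPM in TEPA+hypoxia, 24.0, 22.3 and 19.7 CPM in TEPA, 24.7, 32.5 and 34.5 CPM in hypoxia and 46.1, 44.0 and 33.6 CPM in control. Each TEPA library lay below each control library, and each TEPA+hypoxia library below each TEPA library. TEPA against control was -0.91 ± 0.17 (edgeR adjusted p = 0.914), and HMOX1 passed without hypoxia 2 and 3 (-0.91 ± 0.13, edgeR adjusted p = 0.0389), where 0.0263% of all genes did.

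The remaining transport genes moved in both directions: 6 rose and 3 fell of 15 tested in TEPA+hypoxia against hypoxia (median 0.20), where 30.9% and 30.6% of all genes did, and 2 rose and 5 fell in hypoxia against control, where 29.4% and 27.8% did. HERC2 is a ubiquitin ligase reported to act on NCOA4. With hypoxia 1 as the only hypoxia library, HERC2 was at 0.78 ± 0.16 in TEPA+hypoxia against hypoxia. SLC39A14 is the ZIP14 carrier of iron not bound to transferrin. It had 1.28, 1.54 and 2.43 CPM in TEPA+hypoxia and 0.324, 0.147 and 0.178 CPM in hypoxia. The values of hypoxia 2 and 3 were below the level of 3 counts, which in hypoxia 1 was 0.194 CPM. TF, the gene of transferrin, did not exceed 0.356 CPM in any of the 12 libraries, and HAMP, the gene of hepcidin, was above 0 only in TEPA 2, at 0.0578 CPM.

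Over the 10 libraries without hypoxia 2 and 3, the genes whose log2 CPM was most like that of FTL, among 10112 candidates, were RPS16 (Pearson r = 0.992, Spearman rho = 1), CLTA (0.991) and C20orf27 (0.991). For FTH1 they were DCUN1D5 (0.970), FBXO7 (0.967) and TMEM98 (0.966), and for TFRC LRP8 (0.968), DAAM1 (0.953) and DKC1 (0.935). These are descriptions over libraries that share groups and scaling. With all 12 libraries, where hypoxia 2 and 3 form a cluster of their own and no coefficient is given, RPS16 and CLTA stayed among the 3 for FTL and LRP8 for TFRC, and none of the 3 for FTH1 was the same.

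In these bulk samples fewer cells with a given mRNA and less of it per cell cannot be told apart.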

How the data were processed

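Messenger RNA of 12 libraries (poly(A)-selected, directional kit, per the labels' protocols) was analysed from the deposited table of raw counts per gene symbol. The authors aligned reads to GRCh38 with HISAT2 2.1.0 and named DESeq, per the submitters' processing notes; how reads were counted, with which annotation and strand, is not given in the sources used here. Totals were 13406858 to 24778944 counts.

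From the counts, genes passing filterByExpr (14447 of 51141, 99.909% of counts) were scaled by TMM and fitted with edgeR 4.0.16 (R 4.3.3), with all 12 libraries, 1 mean per group and a quasi-likelihood F-test (two-sided). Calls needed a p under 0.05 after Benjamini-Hochberg adjustment over all genes tested. Common dispersion: 0.0339 with all libraries, 0.00850 when hypoxia 2 and 3 were left out. The script was tested on simulated data. Alternatives were RLE size factors, no filter, DESeq2 1.42.0, the replicate block, only the groups compared, leaving out libraries, and offsets from splines (4 degrees of freedom) of GC content and length from GENCODE 29, for 12556 genes (86.911%). Scaling by totals alone and the offsets without hypoxia 2 and 3 were chosen after seeing the data. Leaving out hypoxia 2 and 3 also rests on the data, since their TMM factors and ribosomal protein share set them apart.

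The members and lists were chosen with earlier results of these data known. All members are named, and of each other list at most 4 genes per contrast, those with the smallest p, plus, chosen after their values were seen, TF and HAMP. For TFRC, FTL and FTH1 the 3 genes most alike, with a mean of at least 5 CPM, are named. Of the other listed iron genes 79 were in the table and 6 symbols (CIAO2A, CIAO2B, CIAO3, FDX2, HJV, MELTF) were not matched.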

Additional observations from a re-analysis of the deposited data

Results flagged for a closer look

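The response of 6 members to hypoxia differed with and without TEPA by the edgeR interaction test over all 12 libraries, which is what brought them here. The interaction on the log2 scale was -1.52 for FTL, -1.41 for FTH1, 1.14 for IREB2, 0.67 for TFRC, 0.87 for NCOA4 and 0.56 for ACO1. The share of ribosomal protein counts was 9.89% and 8.54% in hypoxia 2 and 3 against 3.16% to 5.04% in the other 10 libraries. In hypoxia 2 and 3 FTL and FTH1 were also higher, while IREB2, TFRC, NCOA4 and ACO1 were lower. The part of this share in the 6 interactions was not tested. Without hypoxia 2 and 3 the 6 values were -0.65, -0.47, 0.69, 0.35, 0.34 and 0.21 in the same gene order, all of the same sign and smaller, with none called.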

How the results depend on the processing

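TEPA against control called 0 members in every fit. RLE size factors, no filter, DESeq2 and the replicate block kept 8 members called in hypoxia against control and 8 in TEPA+hypoxia against hypoxia. Of 14416 genes, DESeq2 called 4404 higher and 4295 lower in hypoxia against control, and 4583 and 4621 in TEPA+hypoxia against hypoxia. With no filter these were 3541 and 3895, and 4296 and 3815, of 26128 genes. Leaving out 1 library gave 8 to 9 in hypoxia against control, 7 to 10 in TEPA+hypoxia against hypoxia and 0 in TEPA+hypoxia against TEPA. The number of all genes called moved as well. Without hypoxia 3, 3011 of 14738 genes were higher and 2103 lower in hypoxia against control, and 3133 and 3611 in TEPA+hypoxia against hypoxia. Without hypoxia 1, 71.8% and 73.5% of all genes were called in these 2 contrasts. Fitting only the groups compared called 0 in hypoxia against control, 2 in TEPA+hypoxia against TEPA and 4 in TEPA+hypoxia against hypoxia (37.3% of all genes), and leaving out hypoxia 2 and 3 called 0, 1 and 3 in the same order. The interaction called 6 members, 0 without hypoxia 2 and 3, 5 with the replicate block and 0 to 10 without 1 library. With the replicate block the interaction called 2020 of all 14447 genes higher and 2522 lower. Deviations from the group means correlated at -0.34 to 0.29 between libraries of the same number. These were not set against libraries of different numbers, so whether libraries of the same number were paired cannot be told from them.

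The correction for GC content and length called 4 members in hypoxia against control (48.8% of all genes) and 5 in TEPA+hypoxia against hypoxia (54.3%). In the interaction it called 2, with 1082 of 12556 genes higher and 1891 lower. With the replicate block added it called 3, 5 and 0, and without hypoxia 2 and 3 it called 0, 3 and 0, and 3 in TEPA+hypoxia against TEPA. With the block, 2909 of 12556 genes were called higher and 2722 lower in hypoxia against control. In TEPA+hypoxia against hypoxia these were 3202 and 3200, and 0 genes were called in the interaction. The correction turned FBXL5 to 0.38 in hypoxia against control, with and without the block, and FTH1 to -0.04 without hypoxia 2 and 3. In TEPA+hypoxia against hypoxia it turned TFRC to -0.11 with and without the block and to -0.02 without hypoxia 2 and 3, ACO1 to -0.13 (both) and -0.21, FBXL5 to -0.27 (both) and SLC11A2 to -0.05 without hypoxia 2 and 3. In the interaction it turned TFRC to -0.12 (both) and -0.02, and ACO1 to -0.05 without hypoxia 2 and 3. The cause was not tested. Signs that turned with neither fit called were counted as unchanged.

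With scaling by library totals alone the median log2 of all genes was -0.24 in hypoxia against control and 0.31 in TEPA+hypoxia against hypoxia. In the interaction it was 0.32. With TMM these medians were -0.01, 0.03 and 0.04. Scaling by totals called 8, 8 and 4 members in the same order. Of all 14447 genes it called 2899 higher and 4833 lower, then 5683 and 2951, then 2318 and 1809. SLC40A1 has the fewest counts, 10 to 72 a library.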
